A study of Mus musculus with 2 samples.

Results

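A set of 10 genes of the Wnt signalling pathway was followed through the cell classes of mouse bone marrow stroma: the R-spondins Rspo2 and Rspo3, the ligand Wnt4, the receptors Lgr4, Lrp4, Lrp5 and Lrp6, and the pathway targets and nuclear factors Axin2, Tcf7 and Lef1. They were taken by name, and all 10 were among the 25289 genes of the deposited table. The cells came from crushed femurs, tibiae and pelvis of mice of strain C56BL/6, as labelled, aged 8 to 16 weeks, were freed with collagenase and dispase, and were sorted as negative for CD31, CD45 and Ter119. There was 1 group of 2 samples, Stroma1 with 2 inDrops libraries and Stroma2 with 3, with no treatment or genotype to compare, so the comparisons were between the authors' cell classes and along the authors' pseudotimes. Nothing in the labels ties the samples to separate animals. The p-values measure only how differences between classes or bins vary over these 2 samples, and that spread may be technical.

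Wnt proteins bind Frizzled receptors together with the co-receptors Lrp5 and Lrp6, which keeps beta-catenin from being broken down and lets it act in the nucleus with Tcf and Lef factors. R-spondins are secreted proteins that bind Lgr receptors and so remove the ligases that clear Frizzleds from the cell surface, which makes a cell more responsive to Wnt. In bone, Wnt signalling favours osteoblasts over fat cells, and Lrp4 and Lrp5 are known there through mutations that change bone mass.

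The authors' filter passed 2847 of 15028 barcodes, 948 in Stroma1 and 1899 in Stroma2, with 1658990 and 3687913 counts. The classes compared were Adipocyte progenitor (165 and 298 cells in Stroma1 and Stroma2), Pre-adipocyte (66 and 145), Osteoblast progenitor (144 and 260), Pre-osteoblast/chondrocyte (25 and 66), Pro-osteoblast (42 and 305) and MSC (502 and 815), the class at the start of the authors' paths. Pro-chondrocyte had 4 and 10 cells and was not tested. All 5 of its chondrogenic markers (Acan, Col2a1, Sox9, Comp and Chad) were at 0, and its osteoblastic markers summed to 211456 and 210157 CPM (each count relative to all counts of that class in that sample), which goes against its label. Of the 7 osteoblastic markers, however, 4 had counts in Pro-chondrocyte, and Bglap, Bglap2 and Alpl were at 0 there in both samples. Pro-osteoblast had counts of all 7 in both samples. It held 214044 and 213465 CPM of osteoblastic markers, against 8370.1 and 8844 CPM in MSC. Reticular markers such as Cxcl12 and Lepr held 1869 and 563 CPM in Pro-osteoblast, against 69222 and 71308 CPM in MSC. Within Stroma1, 32 barcodes stood in more than 1 library and covered 64 cells, and within Stroma2 there were 203 such barcodes covering 435 cells. Most of them carried 1 class (30 of 32 and 173 of 203), and 12 barcodes stood in both samples. Keeping each barcode once per sample left 33 of 42 and 209 of 305 Pro-osteoblast cells, against 489 of 502 and 760 of 815 MSC cells. That step ended 2 of 57 calls, both named below. Shares of cells given below were taken without it. The authors' classes and pseudotimes may rest in part on the genes compared here.

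Across the classes the members did not move as 1 group. Rspo2 was highest in MSC and was hardly counted in the classes nearest to bone. Rspo3 was also hardly counted in Pro-osteoblast, but its highest mean was in Osteoblast progenitor. Lrp4 was highest in Pre-osteoblast/chondrocyte, Tcf7 was highest in Pro-osteoblast, and Wnt4 was lowest there. The plot of levels by class shows these patterns with the counting error of each sample.

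**Figure D1:**
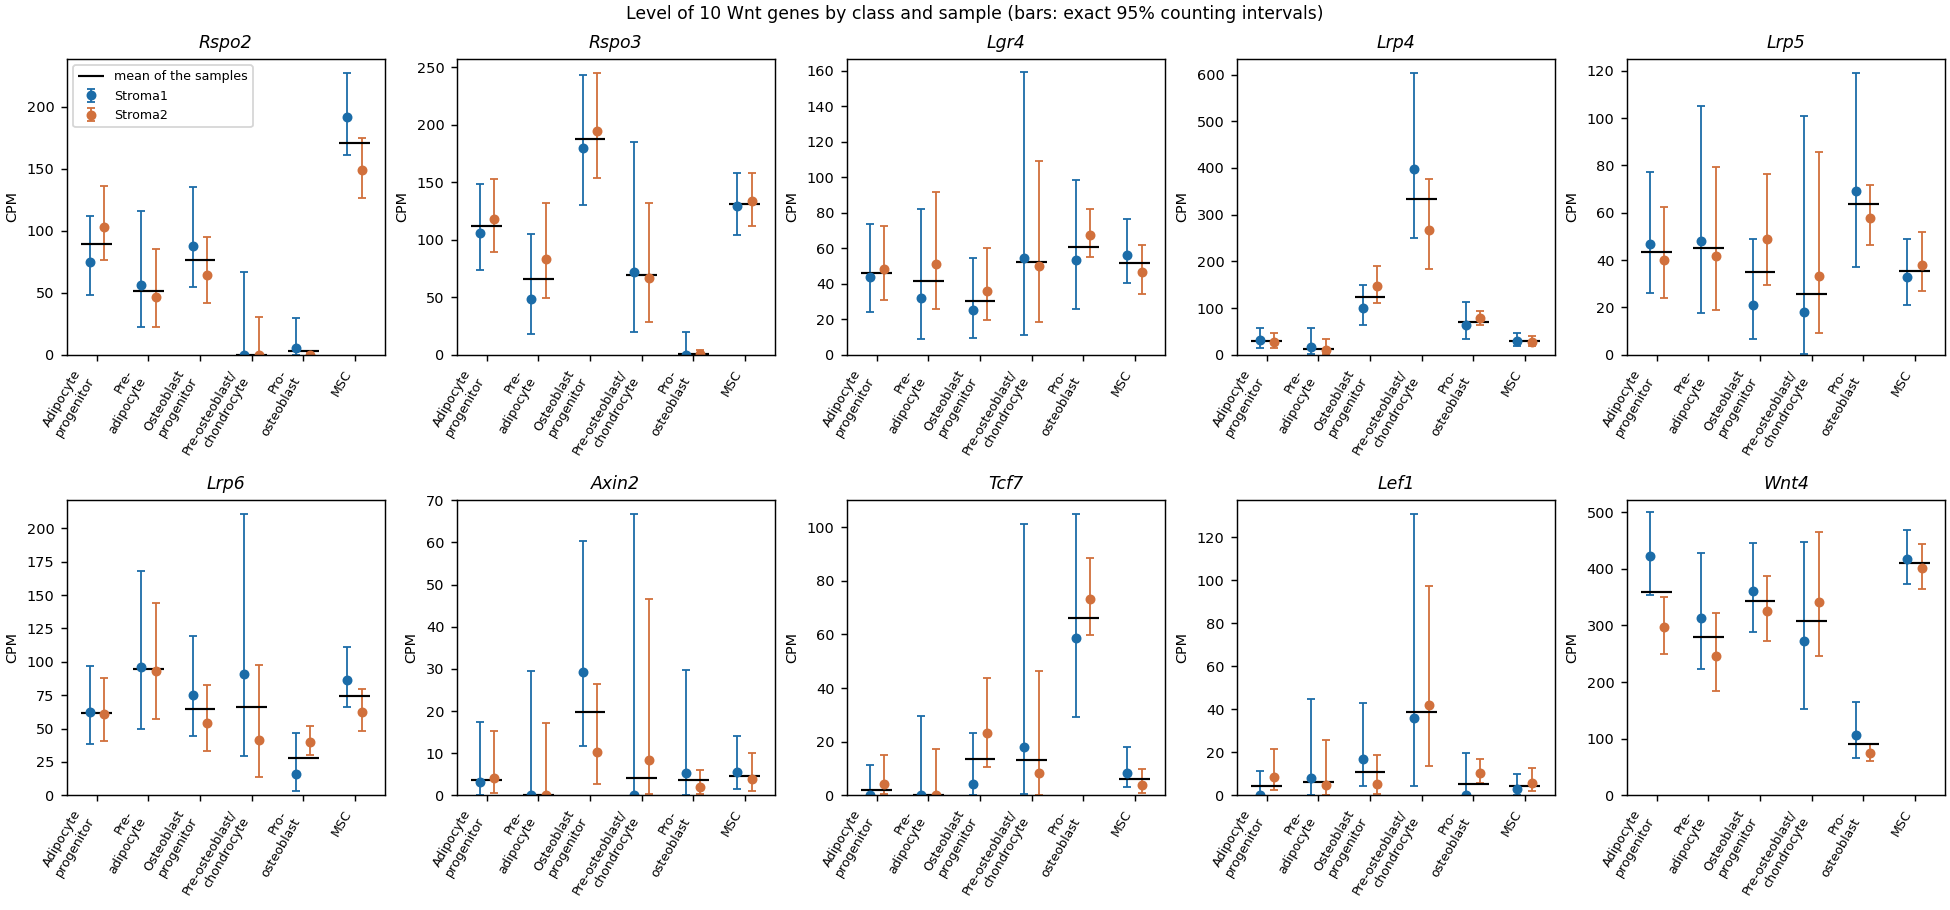
Level of each of the 10 genes in the 6 classes tested, in CPM on a linear axis from 0. Blue points are Stroma1, orange points Stroma2, bars exact 95% counting intervals and black lines the mean of both samples; Rspo2 is at 0 in both samples of Pre-osteoblast/chondrocyte, and Lrp4 stands at 398 and 267 CPM there.

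Counts were summed per sample and class and compared with edgeR's quasi-likelihood test, with p-values adjusted by Benjamini-Hochberg over the 6229 genes tested and a call at an adjusted p under 0.05. Axin2 had too few counts to be tested, which left 9 members. Tcf7 and Lef1 passed the filter on low counts only through the class where each was highest, Pro-osteoblast for Tcf7 and Pre-osteoblast/chondrocyte for Lef1. Their calls for these classes are therefore not independent of the filter. Against MSC, 0 of 9 members were called in Adipocyte progenitor, where 4.17% of all genes tested were called. There, 1 member had an unadjusted p under 0.05 and DESeq2 called 0. In Pre-adipocyte 1 of 9 was called (10.3% of all genes), in Osteoblast progenitor 2 of 9 (7.93%), and in Pre-osteoblast/chondrocyte 3 of 9 (18.0%). In Pro-osteoblast 7 of 9 members were called, with 38.6% of all genes called. These 5 comparisons share the MSC cells. Among pairs without MSC, 34 results of 10 comparisons were called, 7 of them in Pro-osteoblast against Adipocyte progenitor (38.2% of all genes) and 7 in Pro-osteoblast against Pre-adipocyte (38.9%). Pro-osteoblast against Osteoblast progenitor had 6 members called (31.8%) and Pro-osteoblast against Pre-osteoblast/chondrocyte 5 (17.2%). Osteoblast progenitor had 1 member called against Adipocyte progenitor (7.55%) and 2 against Pre-adipocyte (13.4%). Pre-osteoblast/chondrocyte had 2 called against each of Adipocyte progenitor (16.5%), Pre-adipocyte (19.1%) and Osteoblast progenitor (9.31%). Pre-adipocyte against Adipocyte progenitor had 0 (4.96%), with 0 at an unadjusted p under 0.05 and 0 by DESeq2.

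Rspo2 (GRCm38 chr15:43020794-43170826, minus strand), an R-spondin with known roles in limb and lung development, was most abundant in MSC. Its level was 75.1 and 103 CPM in Adipocyte progenitor, 88.0 and 64.3 CPM in Osteoblast progenitor and 56.2 and 46.5 CPM in Pre-adipocyte, against 192 and 149 CPM in MSC. Every sample of these classes lay below both samples of MSC. In Pre-osteoblast/chondrocyte no count was seen in either sample, and in Pro-osteoblast 1 count was seen in Stroma1 and 0 in Stroma2.

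Relative to MSC, Rspo2 fell in Pre-adipocyte by a log2 change of 1.44 (SE 0.41, adjusted p = 0.00997, edgeR) and in Osteoblast progenitor by 1.14 (SE 0.32, adjusted p = 0.0112). The Pre-adipocyte call was lost without library 1.2 (adjusted p = 0.0542) and with DESeq2 (0.0778). The Osteoblast progenitor call was lost without library 1.1 (0.271), without library 2.1 (0.0660) and with DESeq2 (0.0980). The change of −0.72 in Adipocyte progenitor (SE 0.30, adjusted p = 0.241) did not pass. Rspo2 was at least 8.49-fold lower in Pre-osteoblast/chondrocyte, with 0 counts against 293 in MSC (floor of 3 counts over both samples, adjusted p = 1.2e-06). In Pro-osteoblast the ratio was 117 lower, from 1 count against 293 in MSC, with an exact 95% counting interval of 20.8 to 4634 (adjusted p = 1.1e-13). By mean level MSC came first, then Adipocyte progenitor, Osteoblast progenitor, Pre-adipocyte, Pro-osteoblast and Pre-osteoblast/chondrocyte. Of neighbours in that order, Pro-osteoblast against Pre-adipocyte was the one called, at 1 count in Pro-osteoblast and 17 in Pre-adipocyte (ratio 42.9 lower, interval 6.72 to 1793).

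Rspo2 counts were few per cell. A count was seen in 0 of 25 and 0 of 66 cells of Pre-osteoblast/chondrocyte, which allows shares of cells with a count of up to 12.0% and 4.55%, against 15.3% and 13.3% of MSC cells. In Pro-osteoblast it was seen in 1 of 42 and 0 of 305 cells, which allows up to 0.984% in Stroma2, although these cells were deeper (medians of 4422.0 and 4201.0 counts, against 1377.5 and 1160.0 in MSC). As a measure of free RNA, barcodes outside the filter with 5 or more counts of B lineage markers (122 and 350, medians of 1008.0 and 1004.5 counts) had a Rspo2 count in 0 of 122 and 0.286%. Of all Rspo2 counts in passing cells, 72.5% and 64.6% lay in MSC, a class that held 44.0% and 27.8% of the counts of all genes.

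Rspo3 (GRCm38 chr10:29452416-29535867, minus strand), an R-spondin with known roles in vessels and bone, had its highest mean in Osteoblast progenitor. It stood at 180.2 and 195 CPM there (188 ± 10.7, SD, n = 2), against 129 and 134 CPM in MSC (131 ± 3.26, SD, n = 2). Both samples of Osteoblast progenitor lay above both of MSC, but the log2 change of 0.55 (SE 0.27, adjusted p = 0.259) did not pass the test. The level was 106 and 118 CPM in Adipocyte progenitor, 72.4 and 66.8 CPM in Pre-osteoblast/chondrocyte and 48.1 and 83.7 CPM in Pre-adipocyte.

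In Pro-osteoblast 0 and 1 Rspo3 counts were seen. That is 1 count against 231 in MSC, a ratio of 92.2 lower (16.4 to 3657, adjusted p = 1.3e-13, edgeR). Against Osteoblast progenitor it is 1 count against 119, a ratio of 136 lower (24.0 to 5428). Rspo3 was also lower in Pro-osteoblast than in Pre-osteoblast/chondrocyte, with 1 count against 12 (ratio 55.1, interval 8.15 to 2355). Osteoblast progenitor exceeded Pre-adipocyte by 1.19 in log2 (SE 0.37, adjusted p = 0.0195), a call lost with all genes kept (0.0518), without libraries 1.2 (0.132) and 2.3 (0.134), and with DESeq2 (0.0807). By mean level Osteoblast progenitor came first, then MSC, Adipocyte progenitor, Pre-osteoblast/chondrocyte, Pre-adipocyte and Pro-osteoblast, and of neighbours the last pair was the one called. In MSC, 24.7% and 17.6% of the cells with a Rspo2 count also had a Rspo3 count, against 15.9% and 13.0% of all MSC cells, a description of sparse counts that was not tested.

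Wnt4 (GRCm38 chr4:137277489-137299726, plus strand), a Wnt ligand with known roles in kidney and ovary, was counted in each of the 6 classes tested and in neither sample of Pro-chondrocyte, in 917 of 2847 passing cells in all. Its level was 107 and 74.4 CPM in Pro-osteoblast (90.6 ± 22.9, SD, n = 2), against 418 and 402 CPM in MSC (410.4 ± 11.1, SD, n = 2). The other 4 classes lay between 246 and 422 CPM and did not overlap with Pro-osteoblast. Wnt4 fell in Pro-osteoblast by 1.09 in log2 relative to MSC (SE 0.21, adjusted p = 9.2e-06, edgeR). It was lower in Pro-osteoblast than in each of the other 4 classes as well. The smallest of these differences, −0.81 against Pre-adipocyte (SE 0.26, adjusted p = 0.00906), and the −0.94 against Pre-osteoblast/chondrocyte (SE 0.29, adjusted p = 0.0155) were lost in 4 and 5 of the alternatives, among them without libraries 1.2 and 2.2. The second was also lost with each barcode kept once (adjusted p = 0.0655). With library totals and no scaling factor, an alternative described below, Wnt4 also fell in Pre-adipocyte relative to MSC (−0.60, adjusted p = 0.0460). No other neighbours in the order of Wnt4 levels differed beyond their spread. Per cell the drop was smaller, at 47.6 and 35.4 Wnt4 counts per 100 cells in Pro-osteoblast, against 60.8 and 50.7 in MSC. Counts per cell depend on depth, however, and Pro-osteoblast cells were deeper. With each cell thinned to 500 counts, a Wnt4 count was seen in 4.76% and 3.61% of Pro-osteoblast cells, against 17.1% and 16.1% of MSC cells.

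**Figure D2:**
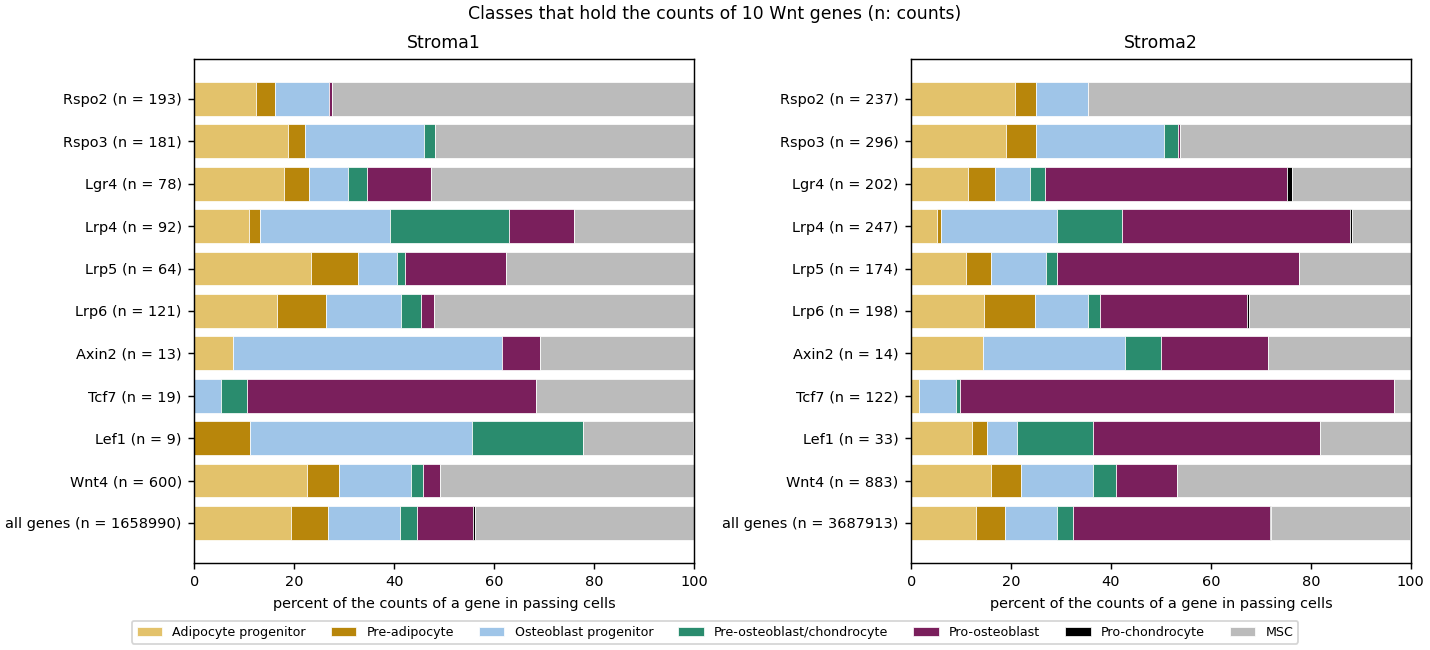
Percent of each gene's counts in passing cells that lie in each of the 7 classes, as stacked bars from 0 to 100, with Stroma1 and Stroma2 in separate panels and a bar for all genes. Rspo2 lies mostly in MSC (72.5% and 64.6%), and Tcf7 lies mostly in Pro-osteoblast (57.9% and 86.9%).

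Lrp4 (GRCm38 chr2:91457511-91513779, plus strand), a receptor that binds sclerostin and anchors its block of Wnt signalling in bone, was high in the classes on the way to bone. It stood at 398 and 267 CPM in Pre-osteoblast/chondrocyte (333 ± 92.7, SD, n = 2), against 30.2 and 28.3 CPM in MSC (29.2 ± 1.35, SD, n = 2). It was at 101 and 147 CPM in Osteoblast progenitor and at 64.1 and 77.9 CPM in Pro-osteoblast. In Adipocyte progenitor it was at 31.3 and 27.3 CPM, and in Pre-adipocyte at 16.0 and 9.29 CPM. The 3 bone classes lay above the other 3 in both samples, with no overlap.

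Relative to MSC, Lrp4 rose by 3.61 in log2 in Pre-osteoblast/chondrocyte (SE 0.38, adjusted p = 4.2e-13, edgeR), by 2.14 in Osteoblast progenitor (SE 0.35, adjusted p = 1.5e-06) and by 2.52 in Pro-osteoblast (SE 0.34, adjusted p = 1.2e-09). Pre-osteoblast/chondrocyte exceeded Osteoblast progenitor by 1.47 (SE 0.35, adjusted p = 0.00171), which was lost with classes taken from each cell's neighbours without Wnt genes (0.83, adjusted p = 0.225). Pro-osteoblast was below Pre-osteoblast/chondrocyte by 1.09 (SE 0.35, adjusted p = 0.0190), a call lost in 6 alternatives, among them with each barcode kept once (adjusted p = 0.0575) and without library 1.1, 1.2 or 2.1. In the order of means Pro-osteoblast exceeded its neighbour Adipocyte progenitor (2.37, SE 0.39, adjusted p = 3.1e-07), and the 3 remaining pairs of neighbours were not called. Of these, Pro-osteoblast against Osteoblast progenitor turned with the scale, at 0.38 with TMM (adjusted p = 0.409) and −0.81 with library totals (adjusted p = 0.0249), the scaling alternative described below. In the single libraries Lrp4 in Pre-osteoblast/chondrocyte stood at 429.5, 367, 348, 245 and 230.4 CPM, so no library set its level alone. A count was seen in 44.0% and 36.4% of Pre-osteoblast/chondrocyte cells, against 3.78% and 3.31% of MSC cells and 0 of 122 and 1.71% of the B lineage barcodes outside the filter. With each cell thinned to 500 counts the shares were 20.0% and 21.2%, against 1.39% and 1.47% in MSC. The share of mitochondrial counts was also higher in Osteoblast progenitor (7.23% and 6.90%) and Pre-osteoblast/chondrocyte (7.74% and 6.37%) than in MSC (4.32% and 4.31%), and its part in the Lrp4 difference was not tested.

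Lgr4 (GRCm38 chr2:109917647-110014257, plus strand), a receptor of R-spondins, and Lrp5 (GRCm38 chr19:3584828-3686564, minus strand), a Wnt co-receptor, had their highest means in Pro-osteoblast. Lgr4 stood at 53.4 and 67.5 CPM in Pro-osteoblast, against 56.2 and 46.8 CPM in MSC, and the classes overlapped. Lrp5 stood at 69.4 and 57.9 CPM in Pro-osteoblast (63.7 ± 8.16, SD, n = 2), against 32.9 and 38.0 CPM in MSC (35.5 ± 3.60, SD, n = 2), with no overlap.

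On the TMM scale, which sets the bulk of genes level between classes, Lgr4 rose in Pro-osteoblast by 1.48 (log2, SE 0.34, adjusted p = 1.6e-04, edgeR) and Lrp5 by 1.92 (SE 0.37, adjusted p = 8.2e-06), but with library totals and no scaling factor neither was called (0.24 with adjusted p = 0.521, and 0.69 with adjusted p = 0.0891). Per cell, Lgr4 had 23.8 and 32.1 counts per 100 cells in Pro-osteoblast, against 8.17 and 5.89 in MSC. Lrp5 had 31.0 and 27.5 counts per 100 cells in Pro-osteoblast, against 4.78 and 4.79 in MSC. Counts per cell and shares of cells with a count depend on depth. For Lgr4 the shares were 19.0% and 20.7% in Pro-osteoblast, against 6.37% and 3.93% in MSC. With cells thinned to 500 counts they were 0% and 2.30%, against 2.19% and 2.09%. In the other classes Lgr4 was lowest in Osteoblast progenitor at 25.1 and 36.0 CPM, and Lrp5 was lowest in Pre-osteoblast/chondrocyte at 18.1 and 33.4 CPM. No neighbours in the order of Lgr4 levels differed beyond their spread. For Lrp5 the top pair did, Pro-osteoblast exceeding Pre-adipocyte by 1.33 (SE 0.48, adjusted p = 0.0195) on the TMM scale but not with library totals (0.41, adjusted p = 0.525), without library 1.2 or 2.2, or with DESeq2.

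Lrp6 (GRCm38 chr6:134446476-134566965, minus strand), the other Wnt co-receptor, was called in none of the 18 comparisons of classes and paths. Its level was 96.3 and 92.9 CPM in Pre-adipocyte, 16.0 and 40.0 CPM in Pro-osteoblast, and 86.4 and 62.4 CPM in MSC, with the other 3 classes between 41.8 and 90.6 CPM. Both samples of Pro-osteoblast lay below both of MSC in CPM. The log2 change in Pro-osteoblast was 0.21 on the TMM scale (SE 0.35, adjusted p = 0.685) and −1.04 with library totals (adjusted p = 0.00637), so its direction there depends on the scale. With library totals Lrp6 was also lower in Pro-osteoblast than in Pre-adipocyte (−1.40, adjusted p = 0.00472) and in the last bin of the osteoblast path than in the first (−1.20, adjusted p = 0.00840). The TMM factors were 0.59 and 0.51 in Pro-osteoblast, against 1.25 and 1.25 in MSC. With library totals, an alternative added after seeing the data, the median of all genes in Pro-osteoblast against MSC moved to −1.24, and the split of called genes was 408 higher and 4007 lower, against 1242 higher and 1165 lower with TMM. Lgr4, Lrp5 and Lrp6 all stood above that median. Lrp4 (1.29), Tcf7 (3.40) and Wnt4 (−2.34) kept direction and call with library totals. The ratio lower in Pro-osteoblast than in MSC became 273 for Rspo2 and 216 for Rspo3, and Tcf7 was at least 8.09-fold higher than in Pre-adipocyte. In the other classes these medians were −0.16 in Adipocyte progenitor, −0.36 in Pre-adipocyte, −0.03 in Osteoblast progenitor and −0.27 in Pre-osteoblast/chondrocyte, and the called genes split 172 higher and 48 lower with library totals in Adipocyte progenitor (246 and 14 with TMM), 407 and 524 in Pre-adipocyte (528 and 116) and 448 and 683 in Pre-osteoblast/chondrocyte (583 and 537).

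**Figure D3:**
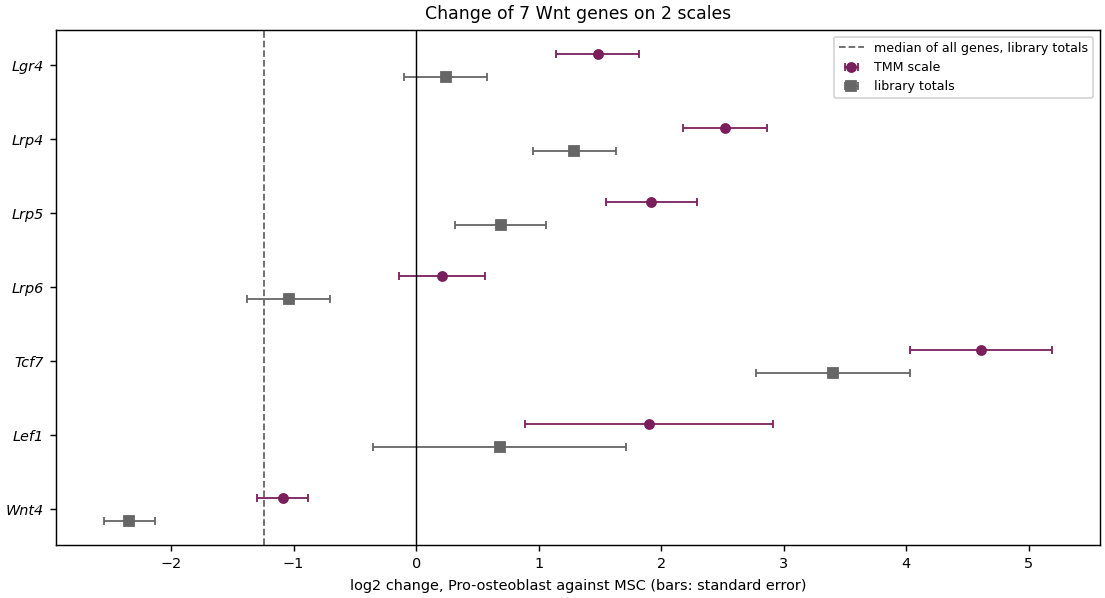
Log2 change of 7 genes in Pro-osteoblast against MSC, with TMM scaling (circles) and with library totals (squares); bars are standard errors and the dashed line is the median of all genes with library totals (−1.24). Tcf7, Lrp4 and Wnt4 keep their direction and call on both scales, and Lrp6 changes sign. Lgr4 (0.24) and Lrp5 (0.69) stay above 0 with library totals but are not called.

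Tcf7 (GRCm38 chr11:52252371-52283014, minus strand), a nuclear partner of beta-catenin also known from T cells, was counted mainly in Pro-osteoblast. It stood at 58.8 and 73.1 CPM there (11 and 106 counts), against 8.23 and 3.90 CPM in MSC (6 and 4 counts), with no overlap. It was at 4.19 and 23.1 CPM in Osteoblast progenitor, 18.1 and 8.35 CPM in Pre-osteoblast/chondrocyte and 0 and 4.21 CPM in Adipocyte progenitor, and no count was seen in Pre-adipocyte. Tcf7 rose in Pro-osteoblast by 4.61 on the log2 scale relative to MSC (SE 0.58, adjusted p = 1.2e-10, edgeR) and by 3.25 relative to Osteoblast progenitor (SE 0.59, adjusted p = 3.3e-06), its neighbour in the order of means. Tcf7 passed the filter on low counts only through Pro-osteoblast, so these p-values are not independent of its high level there. Against Pre-adipocyte, with 117 counts in Pro-osteoblast and 0 in Pre-adipocyte, it was at least 15.5-fold higher. Against Pre-osteoblast/chondrocyte the ratio was 12.7 from 117 counts against 2 (interval 3.45 to 106), or 6.25 with library totals (1.69 to 52.2). In the single libraries Tcf7 in Pro-osteoblast stood at 35.1, 78.6, 76.3, 76.9 and 66.4 CPM. Without library 1.2 Tcf7 had too few counts to be tested, so its calls have no test with that library left out. Markers of T lymphocytes summed to 10.7 and 2.76 CPM in Pro-osteoblast, with 2 of 10 seen in each sample, against 5.49 and 12.7 CPM in MSC (2 and 4 counts in Pro-osteoblast, against 4 and 13 in MSC). They were thus higher in Pro-osteoblast in Stroma1 and lower in Stroma2, and their part in the Tcf7 difference was not tested. A Tcf7 count was seen in 19.0% and 24.3% of Pro-osteoblast cells (2.38% and 3.93% with cells thinned to 500 counts), against 0.598% and 0.491% of MSC cells (0.199% and 0.245%) and 0 of 122 and 2.57% of the B lineage barcodes outside the filter. The 2 genes that overlap Tcf7 (Gm26551 on its strand and A630014C17Rik on the other) had 0 or 1 counts per class and sample.

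Lef1 (GRCm38 chr3:131110471-131224356, plus strand), the other nuclear partner of beta-catenin among the members, rested on 42 counts in 31 cells. It stood at 36.2 and 41.8 CPM in Pre-osteoblast/chondrocyte (39.0 ± 3.92, SD, n = 2), from 2 and 5 counts, against 2.74 and 5.85 CPM in MSC (4.29 ± 2.20, SD, n = 2), from 2 and 6 counts. Every other class lay at 16.8 CPM or lower. Lef1 thus passed the filter on low counts only through Pre-osteoblast/chondrocyte, and its test there is not independent of that filter. The log2 rise of 3.22 in Pre-osteoblast/chondrocyte (SE 1.19, adjusted p = 0.0480, edgeR) was lost with DESeq2 size factors in edgeR (0.0547), with all genes kept (0.0747) and with library totals (0.0717). Without any 1 library Lef1 had too few counts to be tested. In Pro-osteoblast it had 0 counts in Stroma1 and 15 in Stroma2, and the change of 1.90 relative to MSC (SE 1.01, adjusted p = 0.135) did not pass. Lef1 is also known from early B cells, whose markers summed to 0 and 8.35 CPM in Pre-osteoblast/chondrocyte, 53.4 and 47.6 CPM in Pro-osteoblast and 57.6 and 92.6 CPM in MSC.

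Axin2 (GRCm38 chr11:108920349-108950783, plus strand), a scaffold that helps break down beta-catenin and a widely used target gene of the pathway, had 27 counts in 23 cells and could not be tested. Of these, 7 of 13 counts in Stroma1 and 4 of 14 in Stroma2 lay in Osteoblast progenitor, at 29.3 and 10.3 CPM, against 5.49 and 3.90 CPM in MSC from 4 and 4 counts. Osteoblast progenitor was the highest class in both samples, with counts in 3 and 4 cells. In Stroma2 the order lies within counting error. There, Pre-osteoblast/chondrocyte stood at 8.35 CPM from 1 count (95% interval 0.211 to 46.5), and Osteoblast progenitor had an interval of 2.80 to 26.3 CPM. Pro-osteoblast had 1 and 3 counts (5.34 and 2.07 CPM). Gm11670, which overlaps Axin2 on the other strand, had 0 counts in these classes.

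Windows before annotated starts of Axin2, Tcf7 and Lef1, the targets and nuclear factors of the list, are shown. They were chosen because the classes in which these genes were counted most differed. Each is 250 bases before a gene start in RefSeq on GRCm38.p6, read 5′ to 3′ on the gene's strand, with CTTTG, the core of the motif bound by Tcf and Lef factors, in capitals on either strand.
Axin2 (chr11:108920099-108920348, plus strand): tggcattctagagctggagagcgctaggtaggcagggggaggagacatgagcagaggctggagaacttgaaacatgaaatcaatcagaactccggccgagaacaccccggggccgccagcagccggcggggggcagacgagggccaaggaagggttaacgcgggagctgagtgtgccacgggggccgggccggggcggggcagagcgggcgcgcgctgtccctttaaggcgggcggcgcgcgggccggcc
Tcf7 (chr11:52283015-52283264, minus strand): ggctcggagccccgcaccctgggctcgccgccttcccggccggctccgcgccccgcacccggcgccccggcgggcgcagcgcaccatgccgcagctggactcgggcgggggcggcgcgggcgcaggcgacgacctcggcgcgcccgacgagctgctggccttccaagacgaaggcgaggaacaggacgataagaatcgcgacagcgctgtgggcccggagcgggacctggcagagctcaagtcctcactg
Lef1 (chr3:131110047-131110296, plus strand): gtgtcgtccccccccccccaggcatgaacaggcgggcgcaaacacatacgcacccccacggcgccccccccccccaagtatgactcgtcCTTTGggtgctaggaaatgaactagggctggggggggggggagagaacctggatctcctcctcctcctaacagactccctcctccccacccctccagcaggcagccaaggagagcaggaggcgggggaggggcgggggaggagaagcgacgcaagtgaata
The Lef1 window holds 1 core, which begins 161 bases before the start, and the others hold none. The Tcf7 window shown contains an atg followed by an open reading frame to its end. It may thus be coding sequence of a longer transcript, and its lack of a core says nothing about a promoter further upstream. Over 9 windows of the 5 members found in the RefSeq table (Lgr4, Lef1, Wnt4, Tcf7 and Axin2), CTTTG was in 4, all of Lef1, and the longer CTTTGNT, which contains it, in 0. The Lef1 window shown overlaps another of these 4 and shares its core with it, so the 4 are not separate. Searched in the same way on both strands, CTTTG was in 48.6% and CTTTGNT in 16.0% of 32851 promoters of all genes. Rspo2, Rspo3, Lrp4, Lrp5 and Lrp6 were not matched.

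Along the authors' pseudotimes, cells with a value were cut into 5 bins of equal width in the pseudotime, each with about as many cells, and the last bin was compared with the first. The first bins held 379 cells on the adipocyte path, 385 on the osteoblast path and 359 on the chondrocyte path, all of class MSC. The adipocyte and osteoblast paths had 379 of these cells in common, and the chondrocyte path had all 359 of its cells in common with each of them, so the 3 comparisons share early cells. On the adipocyte path 1 of 7 members tested was called, with 12.1% of 5904 genes called. On the osteoblast path 7 of 8 were called, with 37.5% of 5709 genes called. On the chondrocyte path 2 of 7 were called, with 18.6% of 5596 genes called.

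Rspo2 was lower late on each path. It stood at 41.5 and 48.7 CPM in the last adipocyte bin, against 155 and 185 CPM in the first (log2 change −1.64, SE 0.34, adjusted p = 2.5e-04, edgeR). It stood at 28.8 and 31.4 CPM in the last chondrocyte bin, against 150.1 and 198 CPM in the first (−2.43, SE 0.38, adjusted p = 4.0e-07). On the osteoblast path the bins in order held 158, 229, 231, 85.2 and 4.82 CPM in Stroma1 and 182, 138, 143, 81.8 and 0.664 CPM in Stroma2. The drop thus lay in the fourth and last bins, with 2 counts in the last against 88 in the first, a ratio of 68.7 lower on the TMM scale (18.5 to 576) and 148 lower with library totals (39.6 to 1237).

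Rspo3 on the osteoblast path was highest shortly before the end. The bins in order held 115, 124, 126, 206 and 4.82 CPM in Stroma1 and 82.6, 145, 176, 208 and 0.664 CPM in Stroma2. The fourth bin was the highest in both samples, and 78.8% and 79.9% of its cells were Osteoblast progenitor. The last bin, with 84.0% and 90.2% Pro-osteoblast cells, held 2 counts against 49 in the first, a ratio of 38.3 lower on the TMM scale on which it was called (upper counting limit 325) and 82.1 lower with library totals (21.6 to 697). The call was lost with 3 bins in place of 5 (−0.49, adjusted p = 0.352) and with a linear trend over the bins (−0.72, adjusted p = 0.731). On the chondrocyte path, whose last bin held 0 and 2 Pro-osteoblast cells, the change of 0.50 did not pass (adjusted p = 0.325).

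**Figure D4:**
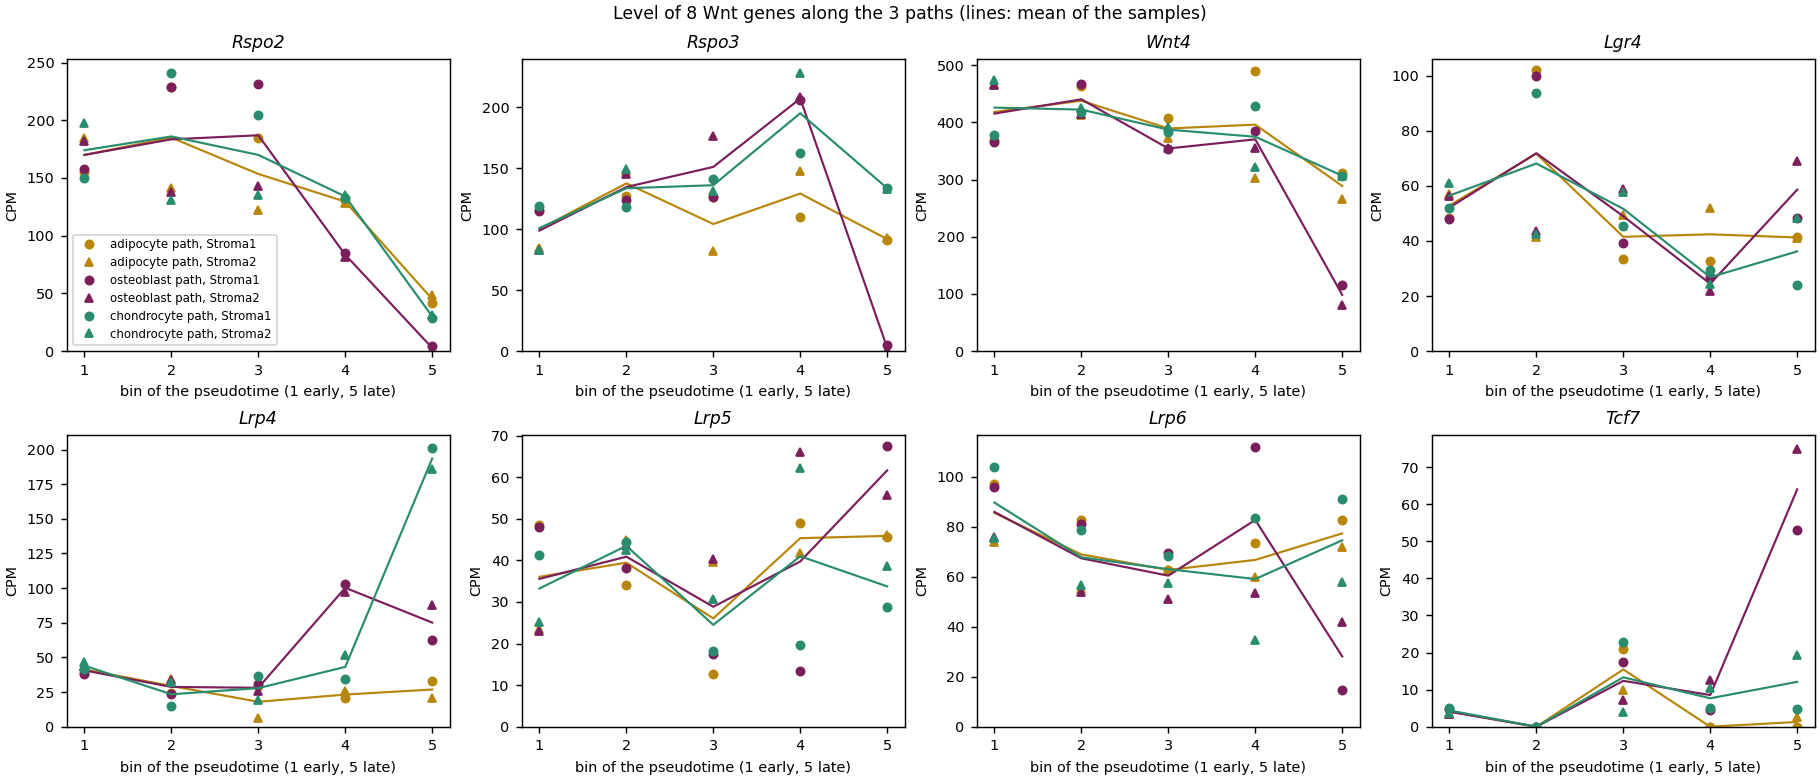
Level in CPM of 8 genes over the 5 bins of each path, from early to late; circles are Stroma1, triangles Stroma2 and lines the mean of both samples. On the osteoblast path Rspo3 is highest in the fourth bin (206 and 208 CPM) and nearly at 0 in the last (4.82 and 0.664 CPM), and Lrp4 on the chondrocyte path stands out in the last bin (201 and 186 CPM).

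Lrp4 changed late on the osteoblast and chondrocyte paths. On the chondrocyte path its bins in order held 41.4, 14.8, 36.5, 34.4 and 201 CPM in Stroma1 and 46.7, 32.0, 19.2, 51.9 and 186 CPM in Stroma2 (last against first 2.18, SE 0.39, adjusted p = 5.9e-06, edgeR). On the osteoblast path they held 38.4, 23.8, 30.5, 103 and 62.7 CPM in Stroma1 and 42.9, 33.6, 25.7, 97.5 and 87.6 CPM in Stroma2. The fourth bin was the highest there, and the last against the first was called with TMM (SE 0.40, adjusted p = 2.3e-05) but not with library totals (0.89, adjusted p = 0.0564).

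Tcf7 had 124 counts in the last osteoblast bin, against 2 in the first, a ratio of 39.7 on the TMM scale (10.8 to 331) and 18.5 with library totals (5.01 to 154). Its last bin stood at 53.0 and 75.0 CPM, against 4.80 and 3.30 CPM in the first. Wnt4 stood at 116 and 81.0 CPM in the last osteoblast bin, against 365 and 466 CPM in the first, and fell by 1.15 in log2 (SE 0.22, adjusted p = 1.7e-05, edgeR). Lgr4 (1.33, SE 0.41, adjusted p = 0.00661) and Lrp5 (1.81, SE 0.49, adjusted p = 0.00189) rose on the osteoblast path with TMM but not with library totals (0.22, adjusted p = 0.655, and 0.71, adjusted p = 0.221), where the median of all genes moved to −1.14 and the called genes split 374 higher and 3112 lower (1056 and 1083 with TMM). The Lgr4 call was also lost with 3 bins (0.74, adjusted p = 0.131), with a linear trend (0.84, adjusted p = 0.399) and with DESeq2 (1.26, adjusted p = 0.130). On the adipocyte path library totals moved the median to −0.27 and the split to 381 higher and 518 lower (520 and 193 with TMM). Lef1 had 0 counts in the first bin of all 3 paths. It had 0 and 16 counts in the last osteoblast bin and 5 and 7 in the last chondrocyte bin, at least 3.41-fold and 3.18-fold higher than the first on the TMM scale, and 1.59-fold and 3.03-fold with library totals.

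Beyond the 10 members, 95 other Wnt pathway genes stood in the table, of which 45 had enough counts to be tested in the classes. In Pro-osteoblast against MSC 8 of the 45 rose and 17 fell (median log2 change −0.43), against 19.9% higher, 18.7% lower and a median of 0.01 over all genes tested. With library totals 6 rose and 37 fell, with medians of −1.69 for the list and −1.24 for all genes. Both Wnt secretion genes fell: Wls, which carries Wnt proteins to the surface, stood at 60.8 ± 10.5 CPM in Pro-osteoblast, against 249 CPM in MSC, and Porcn, the enzyme that adds their lipid, at 4.74 ± 0.852 CPM, against 56.3 CPM in MSC (SD, n = 2). Of 9 Frizzleds and co-receptors 5 fell and 1 rose (9 and 0 with library totals). Fzd1 stood at 7.75 CPM in Pro-osteoblast, against 229 CPM in MSC, and Ryk rose with TMM (0.74) but fell with library totals (−0.50). Of 10 nuclear factors 4 fell (9 with library totals), among them the co-repressors Tle2 (−3.81, SE 0.45) and Tle1 (−3.13, SE 0.48), and 1 rose, Ctbp1, with TMM (0.86) but not with library totals (−0.37).

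Of 8 transducers 1 rose and 1 fell (1 and 7 with library totals). The one that rose was Ctnnb1, which encodes beta-catenin, at 875 ± 6.31 CPM in Pro-osteoblast, against 296 ± 29.1 CPM in MSC (SD, n = 2; log2 change 2.72, SE 0.14, and 1.50 with library totals). The one that fell was Csnk1d, a casein kinase, at 37.4 and 30.3 CPM in Pro-osteoblast, against 118 and 134 CPM in MSC (−0.86, SE 0.32, and −2.12 with library totals). Of 10 other feedback and target genes 4 rose and 3 fell (4 and 6 with library totals). Wisp1, a target gene of the pathway, stood at 614 and 627 CPM in Pro-osteoblast, against 13.7 and 14.6 CPM in MSC (6.58, SE 0.25), while Wisp2, of the same family, stood at 5.34 and 1.38 CPM in Pro-osteoblast, against 451 and 480.5 CPM in MSC (−6.68, SE 0.42). Bambi rose (4.44, SE 0.32) and Fst fell (−4.57, SE 0.36). Of 5 secreted inhibitors 1 rose and 2 fell (1 and 4 with library totals). The one that rose was Dkk1, which blocks Lrp5 and Lrp6, at 21.4 and 39.3 CPM in Pro-osteoblast, with no count in MSC. Those that fell were Sfrp4, at 26.7 and 13.1 CPM in Pro-osteoblast, against 1678 and 1538 CPM in MSC (−5.44, SE 0.23), and Sfrp1, at 10.7 and 4.82 CPM in Pro-osteoblast, against 214 and 188 CPM in MSC (−3.89, SE 0.41), both secreted proteins that bind Wnts. Targets of the pathway thus moved both ways in Pro-osteoblast.

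**Figure D5:**
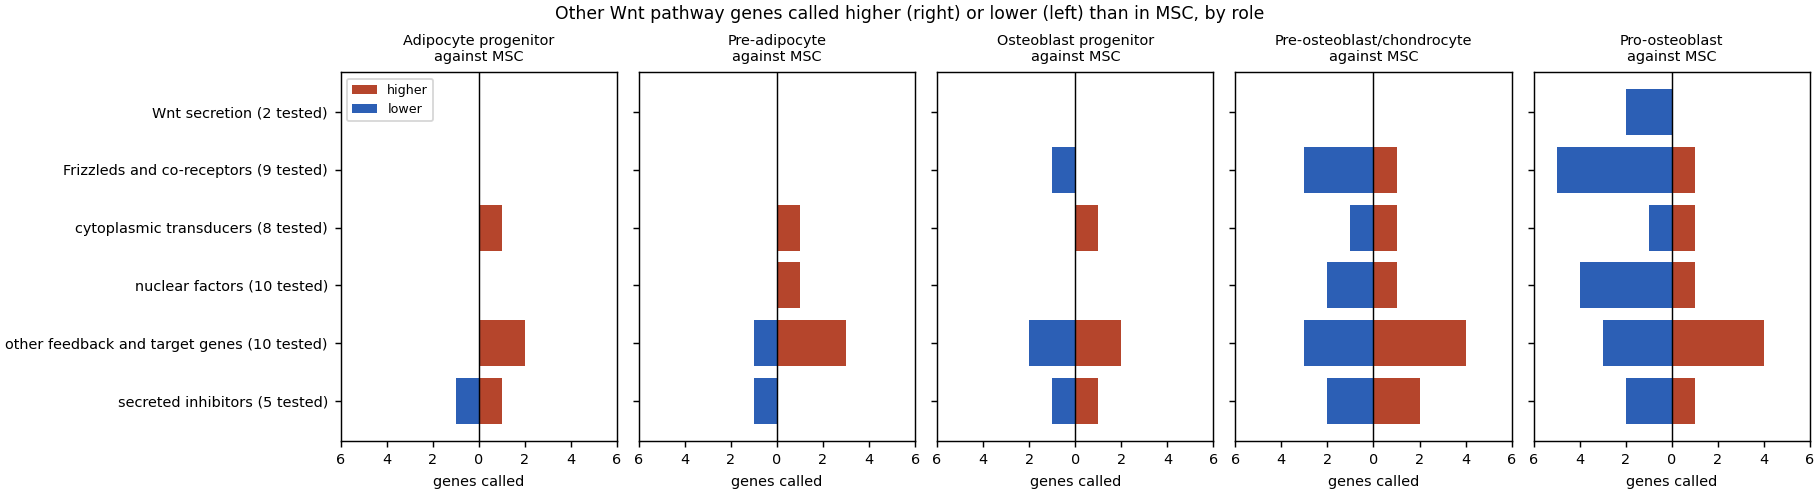
Number of other Wnt pathway genes called higher (right of 0) or lower (left of 0) relative to MSC, by role, in the 5 other classes; 44 of the 45 genes tested are drawn, without the 1 Wnt ligand tested. In Pro-osteoblast 8 were higher and 17 lower, and in Pre-osteoblast/chondrocyte 9 were higher and 11 lower.

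In Pre-osteoblast/chondrocyte 9 of the 45 rose and 11 fell (median −0.37, and −0.06 over all genes), where 18.0% of all genes were called. In Osteoblast progenitor 4 rose and 4 fell (7.93% of all genes called), in Pre-adipocyte 5 and 2 (10.3%), and in Adipocyte progenitor 4 and 1 (4.17%). With library totals the counts were 6 and 12, 4 and 5, 3 and 5, and 3 and 3. Ccnd1, a cyclin and pathway target, stood at 380.3 and 317 CPM in Pre-osteoblast/chondrocyte, against 4.11 and 0.975 CPM in MSC (log2 change 7.20, SE 0.69, adjusted p = 7.8e-15, edgeR). Ctnnb1 was higher than in MSC in each class with TMM, and with library totals in each but the adipocyte classes (0.41 and 0.36, adjusted p = 0.224 and 0.219), at 1039 CPM in Pre-osteoblast/chondrocyte, 727 CPM in Osteoblast progenitor, 399.5 CPM in Adipocyte progenitor and 394 CPM in Pre-adipocyte. Myc, another target, was higher in the adipocyte classes, at 1444 and 1046 CPM in Pre-adipocyte and 319 and 395 CPM in Adipocyte progenitor, against 74.0 and 61.4 CPM in MSC. On the osteoblast path 8 of 45 rose and 20 fell (37.5% of all genes called), or 4 and 34 with library totals. On the adipocyte path 6 of 45 rose and 4 fell (12.1%), or 4 and 6 with library totals. On the chondrocyte path 6 of 46 rose and 7 fell (18.6%), and the counts were the same with library totals.

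For each member tested, the genes with the most similar levels over the 6 classes were found by Pearson's r of log2 CPM within each sample, given here as a description of 6 points that share libraries and depth. For Rspo2 they were Pmp22 (r of 0.989 in Stroma1 and 0.986 in Stroma2), Arhgap6 (0.991 and 0.985) and Igf2 (0.983 and 0.984). For Rspo3 they were Col6a2 (0.997 and 0.992), Col8a1 and Igsf3, and for Wnt4 Dhrs3 (0.954 and 0.945), Sulf1 and Olfml2a. For Lrp4 they were mt-Nd2 (0.978 and 0.981), Clec11a (0.960 and 0.969) and mt-Co3, 2 of them mitochondrial transcripts. For Lgr4 they were 1810055G02Rik (0.944 and 0.941), Nrp2 and Ppp1r37, for Lrp5 Adgrl3 (0.960 and 0.967), Copb2 and Plcd1, and for Lrp6 Lamtor3 (0.936 and 0.945), Senp2 and Cggbp1. For Tcf7 they were Tmem167 (0.965 and 0.968), Sec61g and Ppp1r14b, and for Lef1 Eif4h (0.938 and 0.935), Csnk1g2 and Rcan2.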

How the data were processed

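RNA of single cells was counted from inDrops droplet libraries. Per the submitters' processing notes, Bowtie 1.1.1 and the GRCm38 genome were used. How reads were counted (tool, strand, annotation, molecular identifiers) is not given in the sources used here. The deposited values, which the authors gave as whole-number counts per barcode and gene, are therefore called counts. The authors also deposited, per the file headers, the fraction of mitochondrial counts of each barcode and pseudotimes on 3 paths, which are fractions from 0 to 1. The filter and the classes are the authors' labels, and how they were made is not stated. No doublet caller was run, and cells with high counts were kept. How the authors treated doublets is not given in the sources used here.

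Counts of passing cells were summed per sample and class, or per sample and bin of a pseudotime (5 bins of equal width), since cells are not replicates. Classes with at least 15 cells per sample entered 1 fit in edgeR 4.0.16 (R 4.3.3) with TMM, filterByExpr at a minimum count of 10, terms for class and sample, quasi-likelihood tests and Benjamini-Hochberg adjustment. The fit over classes had 5 residual degrees of freedom and a common dispersion of 0.0155, and each fit over bins had 4. Each SE is the size of the log2 change over the square root of F. CPM uses library totals without TMM. Passing cells held 500 to 16562 counts, with medians of 1523.5 in Stroma1 and 1324.0 in Stroma2. A count of 0 was set to a floor of 3 counts over both samples for bounds on folds. Ratios from 1 to 3 counts have exact 95% counting intervals, and these intervals and the floor cover only counting error.

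The alternatives were DESeq2 1.42.0 and its size factors in edgeR, all genes with 1 count or more, no replicate block, each barcode once per sample, each library or sample left out, classes by vote of 15 nearest neighbours in 30 components of 2000 variable genes without the Wnt genes, 3 bins and a linear trend of pseudotime, and library totals without scaling. The fits were tested on simulated data. The samples were used as a block because each class comes from both.

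The named genes are all members, at most 2 called genes with the largest rise and 2 with the largest fall per role and comparison among the other Wnt pathway genes, and the 3 genes most like each member. The members and lists were chosen with earlier results of these data known. Promoters were read from RefSeq tables of GRCm38.p6.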

Additional observations from a re-analysis of the deposited data

Results flagged for a closer look

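Lef1 was counted mostly outside the cells compared. Barcodes that the authors' filter did not pass and that held 5 or more counts of B lineage markers gave 341 CPM in Stroma1 (63 counts in 122 barcodes) and 594 CPM in Stroma2 (289 counts in 350 barcodes). Other barcodes that did not pass held 2.59 and 2.17 CPM. In passing cells Lef1 had 42 counts in all.

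For the genes below, the last bin against the first moved one way in both samples on one path and the other way in both on another. The differences between paths were not tested, and the paths share their first-bin cells. Each value is a difference of log2 CPM with TMM and a prior count of 2 within a sample, which makes the change of a gene with few counts smaller than in the fit. Rspo3 changed by 0.23 in Stroma1 and 0.70 in Stroma2 (log2) on the chondrocyte path, and by −2.92 and −3.42 on the osteoblast path. Of these, only the osteoblast change was called in the fit over both samples. Lgr4 changed by 0.85 and 1.32 on the osteoblast path, and by −0.85 and −0.23 on the chondrocyte path. The chondrocyte change of Lgr4 was not called, and its osteoblast change was called with TMM but not with library totals. Lrp6 changed by 0.03 and 0.18 on the adipocyte path, and by −0.10 and −0.28 on the chondrocyte path, and neither change was called.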

How the results depend on the processing

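Of the 57 results called, 34 kept their call in every tested alternative, and none reversed. Without the sample as a replicate block 57 of 57 were kept, and the count for pairs without MSC stayed at 34. Library totals without scaling ended 13 calls, DESeq2 ended 7, and leaving out library 1.2 ended 7 of the 50 that could still be tested. For Pre-adipocyte against MSC the number of members called was 1, but 2 with library totals, 2 with classes from neighbours without Wnt genes, 0 with DESeq2 and 0 to 1 with a library left out. For Osteoblast progenitor against MSC it was 2, but 1 with DESeq2 and 1 to 2 with a library left out. On the adipocyte path it was 1, but 2 with library totals. On the osteoblast path it was 7, but 2 with a linear trend, which ended the calls of Rspo2, Rspo3, Wnt4, Lgr4 and Lrp5. For pairs without MSC the 34 calls became 24 to 33 with a library left out. Lrp6 in Pro-osteoblast against MSC, 0.21 and not called, was −1.04 with library totals, −0.02 with DESeq2 and between −1.26 and 0.57 with a library or a sample left out. The cause of these changes was not tested. With 1 sample left out no spread remains, so those values have no test. Axin2 could not be tested at this depth, Lef1 could not without any 1 library, and Tcf7 could not without library 1.2.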
